A study of Mus musculus with 29 samples.

Results

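The simultaneous application of interferon gamma (IFNγ, IFNy in the labels) and transforming growth factor beta (TGFβ, TGFb in the labels) was measured in a single mRNA library of NMM, a mouse melanoma cell line with an NRAS mutant genotype. This library, called the mix, received medium for 24 h and then 100 ng/ml IFNγ together with 10 ng/ml TGFβ for 24 h. It was set beside the 24 h libraries of the 7 other sequences of stimuli, so that 8 of the 29 libraries of the series carried the direct comparisons. Those 7 sequences joined both cytokines in either order (TGFβ then IFNγ, IFNγ then TGFβ), gave one cytokine after medium (medium then IFNγ, or medium then TGFβ), gave one before it (IFNγ then medium, or TGFβ then medium) or were medium then medium, each with both stimulations of 24 h at the same doses and with 5 washes in PBS between them. The 2, 6 and 12 h libraries of each sequence served with the 24 h library as its spread. The length of the first stimulation is the only difference between these that the labels give.

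NMM is 1 cell line, and separate cultures are not named in the labels, so the spread may be technical in part. Library totals ran from 17179530 to 23668015 counts, with 22802611 in the mix, and 14935 genes passed the filter on low counts. Of the melanocyte lineage markers, Mitf lay between 8.45 and 19.5 CPM (counts scaled to library size) and Gpnmb between 25.5 and 288 CPM, whereas Pmel reached at most 0.459 CPM and Sox10 0.139 CPM, so the markers that define pigmented melanocytes were near the floor. Among the leukocyte markers, Ptprc reached at most 0.167 CPM, whereas Cd14 lay between 17.3 and 77 CPM and Cd68 between 2.69 and 6.32 CPM. The part of other cells in the results was not tested. The 6 h library of medium then medium stood apart from the other 3 of its sequence.

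IFNγ binds a receptor that activates the kinases JAK1 and JAK2 and, through them, transcription at gamma-activated sites and, through IRF1, at interferon-stimulated response elements; in tumour cells this raises antigen presentation, T cell attracting chemokines and PD-L1. TGFβ acts through receptor kinases and SMAD2, SMAD3 and SMAD4, often together with AP-1, induces the feedback inhibitors Smad7 and Skil, and is known for matrix and cytoskeletal genes and for restraining inflammatory gene expression. T cells and tumour tissue can supply both at once, and the mix asks what cells do when neither comes first.

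Since the mix was sequenced once, differences in log2 CPM are descriptions without a test, and the edgeR values given beside some of them come from a fit of all libraries that assumes the lone mix library varies like the others. A gene was called where the mix differed at least 2-fold from the 24 h library of a sequence and also lay outside the range of that sequence's 4 libraries. A stricter call asked that the mix lie at least 2-fold beyond each of the 4 libraries. IFNγ alone, TGFβ alone and medium stand for these stimuli after medium, and gene coordinates are those of the deposited table (build GRCm38). All comparisons share the mix library, so their results are not independent of each other. In a bulk sample, fewer cells with a transcript and less transcript per cell cannot be told apart.

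The promoters of a gene at each end of the response are shown because one, Cxcl9, had the largest gap above medium then medium and the other, Ctla2a, was among the 6 genes with the largest gap above medium then IFNγ. They come from RefSeq (build GRCm38.p6), run from 250 bases before to 50 bases after the annotated start, and both are on the minus strand: Cxcl9 at chr5:92328030-92328329 and Ctla2a at chr13:60936576-60936875, the first of the 2 windows listed for that gene.
Cxcl9: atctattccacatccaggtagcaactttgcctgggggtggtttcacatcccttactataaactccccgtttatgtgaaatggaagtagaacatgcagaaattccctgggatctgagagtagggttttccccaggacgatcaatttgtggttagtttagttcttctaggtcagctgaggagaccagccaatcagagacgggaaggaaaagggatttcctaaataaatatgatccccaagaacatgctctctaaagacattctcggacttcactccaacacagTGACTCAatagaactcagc
Ctla2a: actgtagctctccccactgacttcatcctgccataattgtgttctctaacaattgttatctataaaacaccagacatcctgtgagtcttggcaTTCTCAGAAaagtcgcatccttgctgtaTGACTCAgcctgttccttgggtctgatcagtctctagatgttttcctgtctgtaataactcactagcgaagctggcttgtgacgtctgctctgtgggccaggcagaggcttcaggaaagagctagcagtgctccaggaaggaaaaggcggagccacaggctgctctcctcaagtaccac
Capitals mark matches, on either strand, to the AP-1 motif TGANTCA in both promoters and to the gamma-activated site TTCNNNGAA in that of Ctla2a. The core of the interferon-stimulated response element (GAAA, any 2 bases, GAAA) and the SMAD palindrome GTCTAGAC had no match in either window. Over all 32851 promoters of this length, 7.81% held the AP-1 motif, 8.3% the gamma-activated site, 3.44% the interferon core and 0.213% the SMAD palindrome.

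Across genes, the mix lay closest to the sequences that ended in IFNγ. The standard deviation (SD) over genes of the log2 difference was 0.384 between the mix and the 2 h library of TGFβ then IFNγ, 0.402 for its 6 h library, 0.524 for 12 h and 0.608 for 24 h. Medium then TGFβ, where the first stimulus was medium, lay at 0.746, 0.796, 0.969 and 0.878 at 2, 6, 12 and 24 h. The part of the length of the first stimulation, or of other differences between these libraries, was not tested. Libraries within TGFβ then IFNγ differed from each other by 0.399 to 0.598, so the mix was no farther from the 2 h library than these were from one another. Against medium then IFNγ the 4 distances lay between 0.472 and 0.512, with 0.385 to 0.483 within that sequence, and at 24 h this sequence, at 0.505, was nearer to the mix than TGFβ then IFNγ. IFNγ then TGFβ was farther away, at 0.674 to 0.812, against 0.403 to 0.5 within it. The remaining sequences lay at 0.74 to 1.06.

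**Figure D1:**
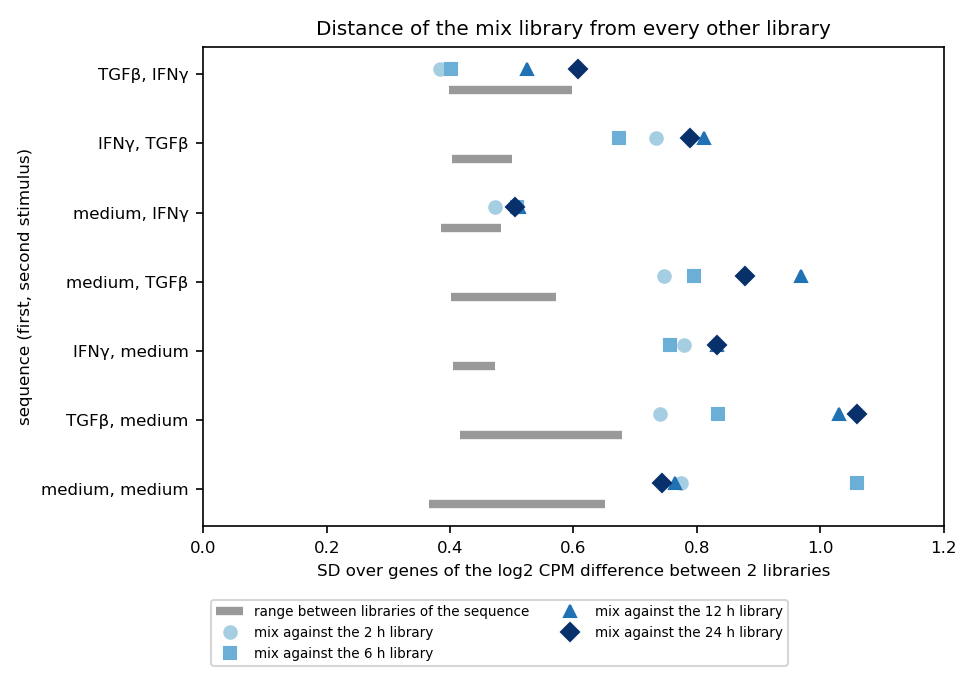
SD over 14935 genes of the log2 CPM difference between the mix and each other library (points, by duration of the first stimulus), with the range of the same measure between libraries of each sequence (grey bars). The smallest distance, 0.384, is to the 2 h library of TGFβ then IFNγ, inside or below the grey bar of that sequence for 3 of its 4 libraries.

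The fewest genes were called against the same sequences. Against TGFβ then IFNγ, 776 of 14935 genes (5.2%) were called, 423 higher and 353 lower in the mix, and against medium then IFNγ 719 (4.81%), 322 higher and 397 lower. Against IFNγ then TGFβ there were 1715 (11.5%), against medium then TGFβ 1814 (12.1%), against medium then medium 1713 (11.5%), against TGFβ then medium 1969 (13.2%) and against IFNγ then medium 2055 (13.8%). The stricter call left 62 genes (0.415%) for TGFβ then IFNγ, 221 (1.48%) for medium then IFNγ and 767 (5.14%) for IFNγ then TGFβ. Both calls depend on the spread within a sequence, which was wider for TGFβ then IFNγ (0.399 to 0.598) than for medium then IFNγ (0.385 to 0.483). By 2-fold against the 24 h library alone, 1296 genes (8.68%) differed for TGFβ then IFNγ and 964 (6.45%) for medium then IFNγ. A fit of all 29 libraries with edgeR's quasi-likelihood test, which assumes that the lone mix library varies like the others, called 3 genes (0.0201%) against TGFβ then IFNγ at a Benjamini-Hochberg adjusted p under 0.05 and 1911 at an unadjusted p under 0.05, while DESeq2 called 119. The same edgeR fit called 335 genes (2.24%) against medium then IFNγ and 3537 (23.7%) against IFNγ then TGFβ.

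Most interferon genes in the mix stood near the level of IFNγ alone. Cxcl9, a chemokine that draws activated T cells (chromosome 5, 92321347 to 92328079), had 101 CPM in the mix, against 114, 126, 156 and 129 CPM in the 2, 6, 12 and 24 h libraries of medium then IFNγ. It had 0.229, 0, 0.345 and 0.166 CPM in medium then medium, and at most 0.218 CPM in medium then TGFβ. The mix lay just under the 4 libraries with IFNγ alone and far above all libraries of medium and of TGFβ. No fold is given where a library rests on 3 counts or fewer.

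Cd274 (chromosome 19, 29367455 to 29388095), the gene of PD-L1, a ligand that restrains T cells, had 311 CPM in the mix, against 284, 269, 249 and 284 CPM in medium then IFNγ. Medium then TGFβ had 12.3, 9.55, 2.31 and 6.26 CPM, and medium then medium 21.1, 10.8, 24.5 and 24.5 CPM. The mix was above each of these libraries, by 0.13 in log2 CPM over the 24 h library of IFNγ, by 5.61 over that of TGFβ and by 3.66 over that of medium. In the edgeR fit the differences were 0.55 (SE 0.586, adjusted p = 0.763) for IFNγ, 5.87 (SE 0.576, adjusted p = 1.77e-07) for TGFβ and 4.25 (SE 0.55, adjusted p = 7.51e-06) for medium. The transcription factor Irf1 stood at 507 CPM in the mix, inside the 465 to 532 CPM of medium then IFNγ, and Socs1, the feedback inhibitor of JAK kinases, at 24 CPM, inside 20 to 28.6 CPM. Batf2, an interferon-induced transcription factor, had 58.8 CPM in the mix, within the 50.8 to 76.8 CPM of IFNγ alone and against at most 0.411 CPM in medium then medium.

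Of the 18 tested guanylate-binding and immunity-related GTPases, which attack intracellular pathogens, 18 were called higher in the mix than in medium then medium, where 4.71% of all genes were, with a median log2 difference of 2.11. Against medium then IFNγ, 0 were called higher and 2, Gbp10 and Gbp11, lower, against 2.66% of all genes, with a median of -0.21. Gbp10 had 20.5 CPM in the mix, against 44.6, 36.6, 53.3 and 44.6 CPM with IFNγ alone. Gbp2 had 2470 CPM in the mix, against 2480, 2470, 2770 and 2810 CPM with IFNγ alone and 212, 97.9, 221 and 233 CPM in medium. Of 23 tested genes of MHC class I presentation, 16 were called higher than in medium then medium and 0 in either direction against medium then IFNγ, with medians of 1.15 and -0.03. The heavy chain H2-K1 stood at 1460 CPM in the mix, inside the 1250 to 1650 CPM of IFNγ alone, and the light chain B2m at 1960 CPM, inside 1690 to 2060 CPM. The peptide transporter Tap1 and the immunoproteasome subunit Psmb8 had 315 and 349 CPM in the mix, each below the 4 libraries of IFNγ alone (338 to 343 CPM for Tap1 and 357 to 378 CPM for Psmb8) by less than the 2-fold limit. Median differences over all tested genes were -0.01 in both comparisons.

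Antiviral genes stood far above TGFβ alone and close to IFNγ alone. Against medium then TGFβ, 29 of 32 tested antiviral genes were called higher and 1, Ifi27, lower, where 6.48% of all genes were higher, and the median difference was 2.35. It was 1.02 and 1.26 against the 2 and 6 h libraries of medium then TGFβ and 3.67 against the 12 h library. Against medium then medium 10 of the 32 were called higher (median 0.58), where 4.71% of all genes were. Against medium then IFNγ 0 were called in either direction (median -0.15), where 2.16% of all genes were higher and 2.66% lower. Oas2, which makes the activator of RNase L, had 104 CPM in the mix, against 130, 108, 83.7 and 100 CPM with IFNγ alone, 57.8, 44.9, 4.51 and 9.37 CPM with TGFβ alone and 112, 85.9, 135 and 136 CPM in medium. Oas2 in the mix therefore lay within the range of IFNγ alone and within that of medium, and above the 4 libraries with TGFβ. Ly6a, the surface antigen Sca-1, had 69.4 CPM in the mix, lower than the 112 to 142 CPM of IFNγ alone and higher than the 19.4 to 24.7 CPM of medium and the 5.55, 6.59, 0.154 and 0.534 CPM of TGFβ alone. Genes of the Gbp, Ifit, H2, Ly6 and Slfn families are uncertain where the counting could split shared reads.

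In medium then TGFβ, interferon genes were lower in the 12 and 24 h libraries than in those of 2 and 6 h. The first stimulus was medium in each, and its length is the only difference that the labels give. The mean log2 level of the GTPases relative to medium was 2.55 in the mix. In medium then TGFβ it was -0.74, -1.03, -3.55 and -2.19 at 2, 6, 12 and 24 h, and in medium then IFNγ 2.85, 2.75, 2.85 and 2.88. The mix thus lay above TGFβ alone at each duration, least so at 2 h. The part of the length of the first stimulation in this difference was not tested.

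**Figure D2:**
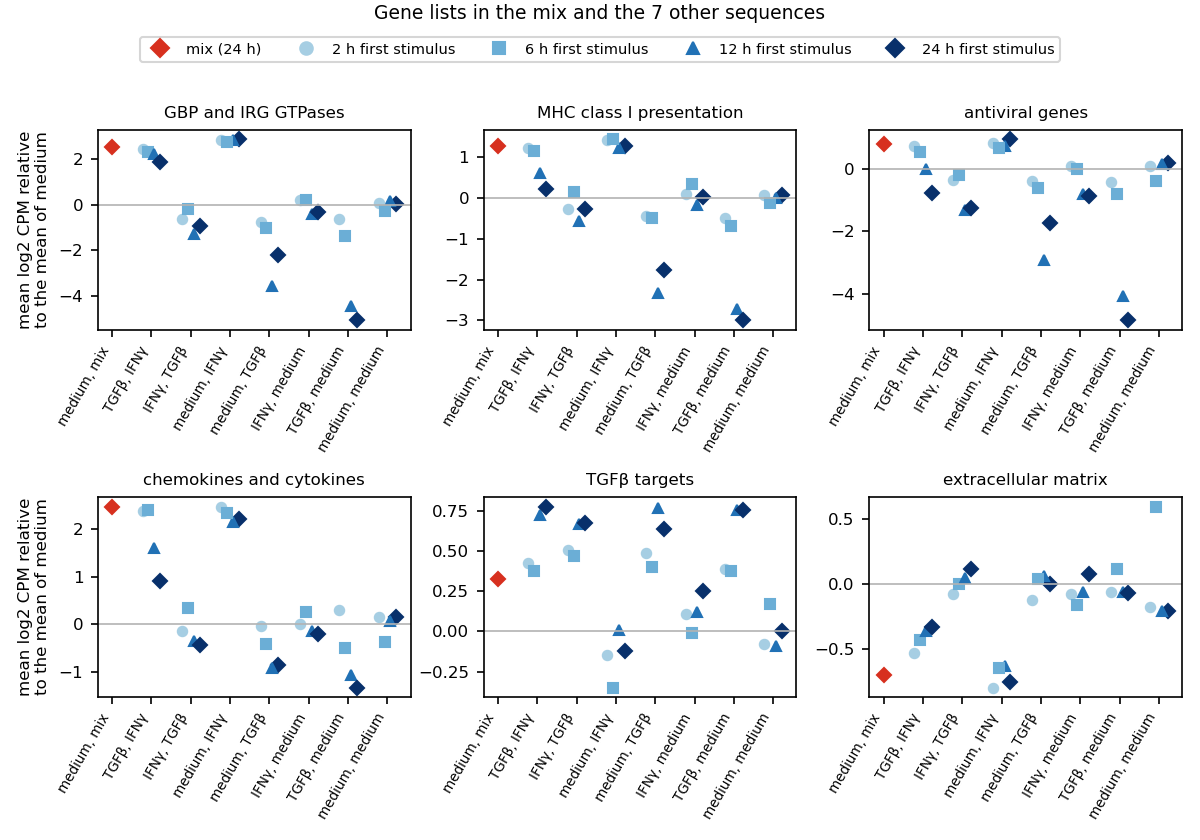
Mean log2 CPM of 6 gene lists relative to the mean of the 4 medium libraries, for the mix (red, leftmost) and each library of the 7 other sequences (blue, by duration of the first stimulus). The mix lies near IFNγ alone for the interferon lists (2.55 for the GTPases, 1.27 for MHC class I) and at 0.33 for TGFβ targets, where the 4 libraries of IFNγ alone lie between -0.35 and 0.01.

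Chemokines and cytokines were likewise higher in the mix than in medium. Of the list's 16 tested genes, 13 were called higher in the mix than in medium then medium (4.71% of all genes), with a median of 2.01, and 1 against medium then IFNγ (2.16% of all genes). Cxcl10, which also draws T cells, had 1390 CPM in the mix, above the 1130, 994, 1030 and 1190 CPM of medium then IFNγ and above the 331 to 1310 CPM of TGFβ then IFNγ. The monocyte attractant Ccl2 stood at 87.5 CPM in the mix, inside the 77.5 to 143 CPM of IFNγ alone, and Il6, an inflammatory cytokine, at 12.9 CPM, inside 9.24 to 14.3 CPM. Ido1, which degrades tryptophan, was detected at 1.04 CPM in the mix and at 1.34 to 1.98 CPM with IFNγ alone, with 0 in every library of medium then medium and medium then TGFβ. The one chemokine called against IFNγ alone was the neutrophil attractant Cxcl2, at 1.61 CPM in the mix, against 1.24, 1.23, 0.659 and 0.278 CPM. Irf8 stood at 99.9 CPM in the mix, between the lower (91.2 and 96 CPM) and the higher (160 and 137 CPM) libraries of IFNγ alone.

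TGFβ target genes distinguished the mix from IFNγ alone. Of 22 tested targets 6 were called higher in the mix than in medium then IFNγ, where 2.16% of all genes were, and 0 lower, with a median of 0.26. Ctla2a, Mmp12, Fn1, Smad7 and Il11 were among them. The feedback inhibitor Smad7 had 76.3 CPM in the mix, against 42.9, 37.4, 38.1 and 37.3 CPM in medium then IFNγ, 55.8, 47.2, 71.5 and 66.6 CPM in medium then TGFβ and 39.9, 37.4, 41.4 and 37.9 CPM in medium then medium. The mix lay above all 12 of these libraries, by 0.89 over IFNγ alone in the edgeR fit (SE 0.177, adjusted p = 0.00523). Pmepa1, another feedback gene of the pathway, had 175 CPM in the mix, above the 75.2 to 101 CPM of IFNγ alone and below the 202 to 228 CPM of TGFβ alone.

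Some other genes high under TGFβ alone were also higher in the mix than under IFNγ alone. Tfpi2, Hmgcll1, Lamb3 and Ctla2a were chosen for a large gap above IFNγ alone, so that difference follows from the choice. Fbln2, Ggct, Mmp12 and Itga2 came from the panel, which was chosen with earlier results of these data known. Fbln2, a matrix glycoprotein, had 80.9 CPM in the mix, against 13.4, 13.2, 13.3 and 12.4 CPM with IFNγ alone, 112, 108, 163 and 147 CPM with TGFβ alone and 18.7 to 27 CPM in medium, so the mix lay between the libraries of each cytokine alone. Ggct, which acts in glutathione turnover, had 96.1 CPM in the mix, above the 43.7 to 60.3 CPM of TGFβ alone and the 16 to 18.3 CPM of IFNγ alone. Ctla2a, a cysteine protease inhibitor whose promoter is printed above, had 2.74 CPM in the mix, against 0.311, 0.224, 0.355 and 0.111 CPM with IFNγ alone and 5.93, 6.14, 7.68 and 4.71 CPM with TGFβ alone. Its level in the mix was above all libraries of IFNγ and of medium and below all libraries of TGFβ. The macrophage elastase gene Mmp12 had 3.59 CPM in the mix, above the 0.5 to 1.23 CPM of IFNγ alone and below the 19.8 to 23.2 CPM of TGFβ alone. Tfpi2, an inhibitor of serine proteases, had 11 CPM in the mix, above the 6.14 to 8.15 CPM of TGFβ alone and the 0.111 to 0.622 CPM of IFNγ alone. Itga2, an integrin subunit for collagen, stood at 125 CPM in the mix, within the 68.7 to 142 CPM of TGFβ alone and above the 39.6 to 54.2 CPM of IFNγ alone. Hmgcll1 (2.22 CPM) and the laminin subunit gene Lamb3 (0.945 CPM) were above all libraries of IFNγ alone, which reached 0.178 and 0.0444 CPM, and below all libraries of TGFβ alone.

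Tnnt2 (chromosome 1, 135836354 to 135852260), which encodes troponin T, was lower than in medium under one cytokine and higher under the other. It had 437 CPM in the mix, against 47, 58.9, 50.4 and 51.7 CPM in medium then IFNγ, 438, 502, 444 and 397 CPM in medium then TGFβ and 148, 164, 149 and 146 CPM in medium then medium. The mix stood at the level of TGFβ alone. The mix lay 1.63 above the sum of the single effects at 24 h, and the interaction in the edgeR fit was 1.64 (SE 0.173, adjusted p = 1.58e-05). TGFβ then IFNγ had 486, 545, 500 and 509 CPM and IFNγ then TGFβ 454, 530, 482 and 380 CPM, so both orders ended near the mix.

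**Figure D3:**
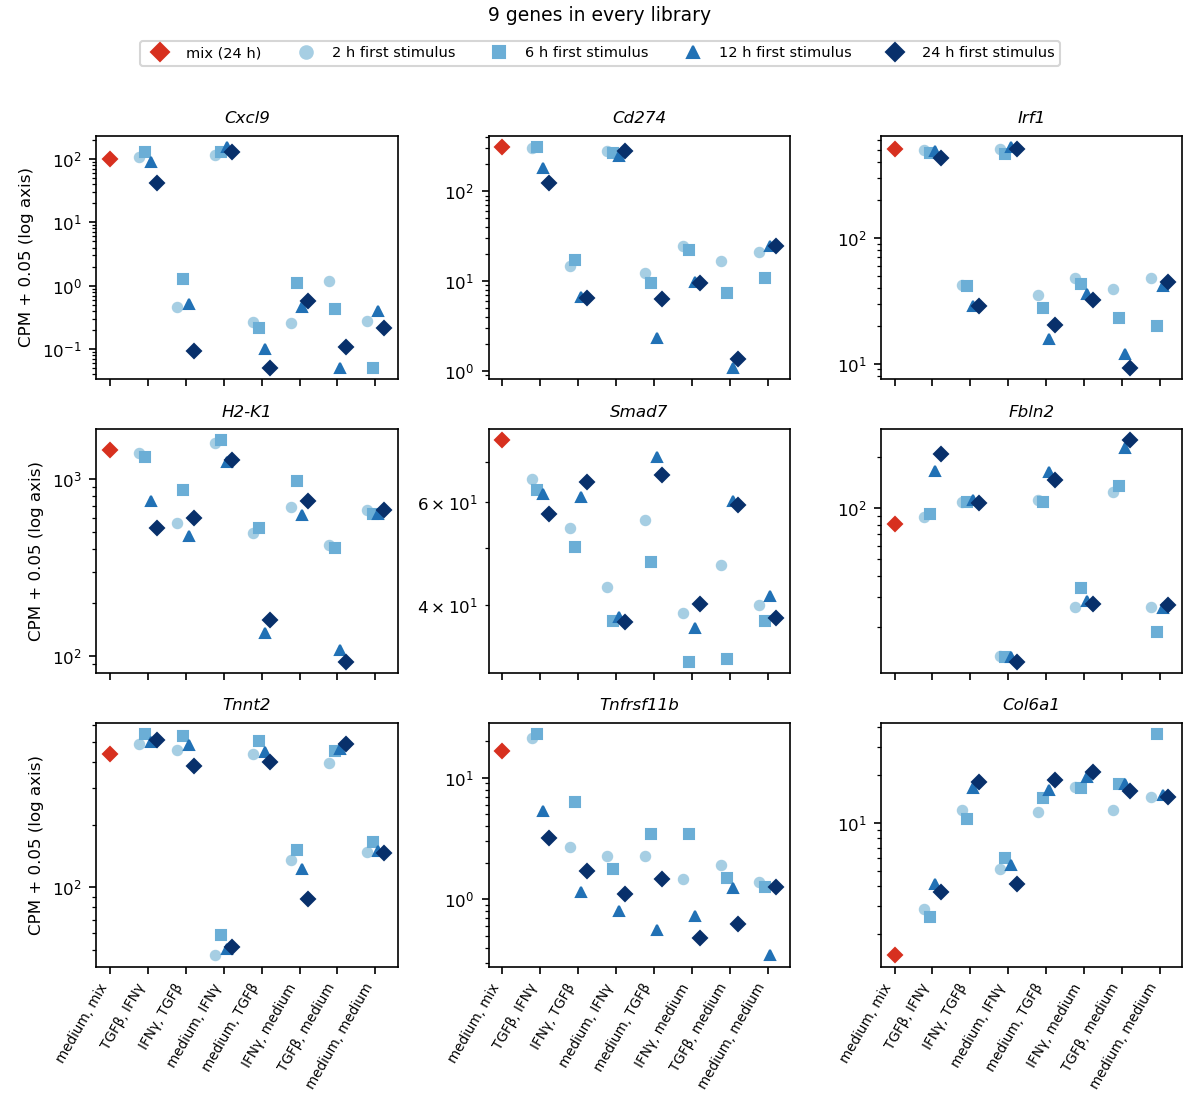
CPM plus 0.05 on a log axis for 9 genes in the mix (red, leftmost) and in each library of the 7 other sequences (blue, by duration of the first stimulus). Tnnt2 in the mix, at 437 CPM, stands with the sequences that contain TGFβ, while Cd274, at 311 CPM, stands with those that end in IFNγ and Col6a1, at 1.42 CPM, lies below all others.

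How much of each cytokine's own response remained in the presence of the other was read from comparisons that share no library. TGFβ alone separated 153 genes upward from medium (2-fold at 24 h and no overlap between the 4 libraries of each), and their median log2 difference was 1.58 for TGFβ minus medium and 0.842 for mix minus IFNγ. Of these, 68 (44.4%) were called higher in the mix than in IFNγ alone, against 2.16% of all genes. Of 349 genes separated downward by TGFβ alone, 43 (12.3%) were called lower in the mix than in IFNγ alone, against 2.66% of all genes, and the median was -1.61 for TGFβ minus medium and -0.256 for mix minus IFNγ. The difference between the upward and the downward share was not tested. The medians rest on the 24 h library of medium then TGFβ, in which interferon genes were lower than at 2 and 6 h.

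IFNγ alone separated 481 genes upward from medium, with a median of 1.54, and the median was 2.34 for mix minus TGFβ. Both medians use 24 h libraries, and interferon genes in medium then TGFβ were lower at 24 h than at 2 and 6 h. For the GTPases the median of mix minus TGFβ was 4.12 at 24 h and 2.86 at 2 h. A larger IFNγ effect beside TGFβ can therefore not be read from 2.34. Of these, 382 (79.4%) were called higher in the mix than in TGFβ alone, against 6.48% of all genes. Of 494 genes separated downward, 210 (42.5%) were called lower in the mix than in TGFβ alone, against 5.66% of all genes, with medians of -0.836 for mix minus TGFβ and -1.39 for IFNγ minus medium. The genes were chosen by their difference under each cytokine alone, so the medians alone are a description. Across all 14935 genes, which are not independent replicates, Pearson's r between the effect of a cytokine beside the other and its effect alone was 0.136 for TGFβ and 0.569 for IFNγ.

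**Figure D4:**
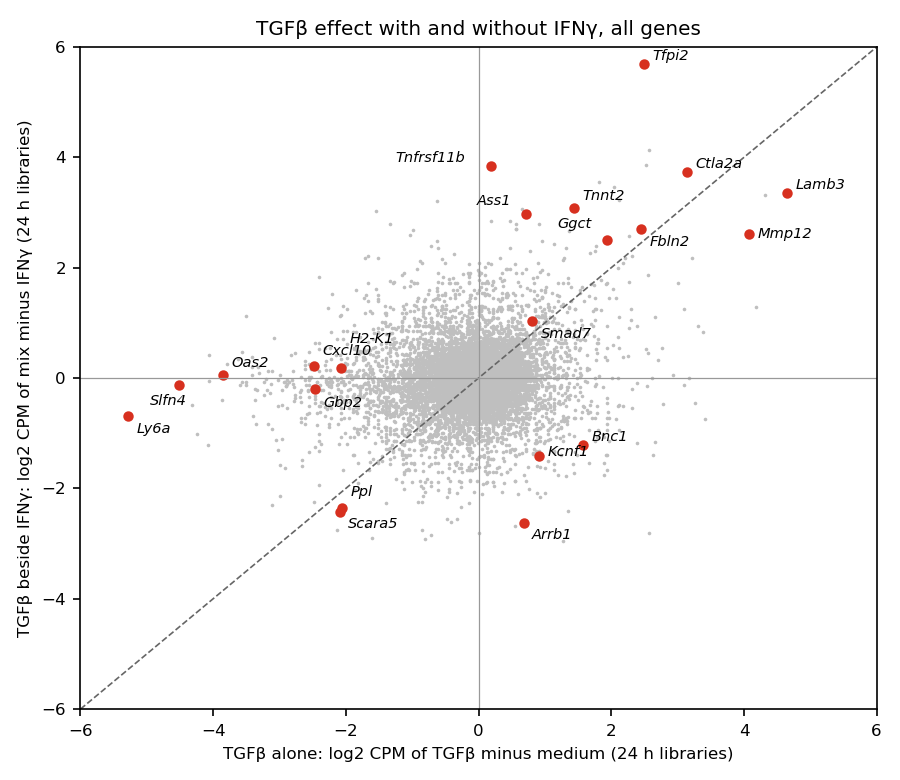
For all 14935 genes, log2 CPM of the mix minus IFNγ alone (vertical) against TGFβ alone minus medium (horizontal), 24 h libraries, with named genes in red and the line of equal effects dashed. Fbln2 and Smad7 lie near the line, Oas2, Gbp2 and Cxcl10 near 0 on the vertical axis although TGFβ alone had lower levels than medium, and Tnfrsf11b and Ass1 lie above the line, at 3.84 and 2.98 on the vertical axis.

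Some interferon genes, picked here after their values were seen, had smaller 24 h differences beside IFNγ. Ly6a differed by -5.28 for TGFβ minus medium and by -0.69 for mix minus IFNγ, and Oas2 by -3.85 and 0.05. At 2 h Oas2 stood closer together, at 57.8 CPM in medium then TGFβ and 112 CPM in medium then medium. Cxcl10 differed by -2.48 for TGFβ minus medium and by 0.22 for mix minus IFNγ, and H2-K1 by -2.07 and 0.19. Ppl (periplakin, a cell junction protein) and Scara5, a ferritin receptor, were chosen for a large gap of the mix below IFNγ alone. Ppl differed by -2.06 for TGFβ minus medium and by -2.36 for mix minus IFNγ, and Scara5 by -2.09 and -2.42. Their large values for mix minus IFNγ follow from that choice, as do the edgeR values given next. Ppl had 1.46 CPM in the mix, against 6.93, 5.49, 6.03 and 7.95 CPM with IFNγ alone, and the edgeR difference was -2.19 (SE 0.288, adjusted p = 4.67e-05). Scara5 had 1.28 CPM in the mix, against 9.9, 9.57, 8.72 and 7.28 CPM with IFNγ alone (edgeR difference -2.71, SE 0.544, adjusted p = 0.00559). Both lay below all libraries of IFNγ alone, TGFβ alone and medium.

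Matrix genes were called in both directions. Of 38 tested extracellular matrix genes, 8 were called lower and 4 higher than in medium then medium (median -0.57), against 6.76% lower and 4.71% higher over all genes. The 4 higher ones were Col6a3, Timp1, Fbln2 and Vcan. Against IFNγ then TGFβ 15 were lower and 3 higher (Col6a3, Timp1 and Loxl2; median -0.78), against 5.97% and 5.51% of all genes. Against medium then IFNγ there were 6 higher (Fbln2, Mmp12, Timp1, Col5a2, Fn1 and Col12a1) and 4 lower (Col6a1, Col6a2, Col3a1 and Loxl1). Over all genes 2.16% were higher and 2.66% lower in that comparison. The mean log2 level of the list relative to medium was -0.7 in the mix, inside the -0.8 to -0.63 of medium then IFNγ and below the -0.53, -0.43, -0.36 and -0.33 of TGFβ then IFNγ. Col6a1 (chromosome 10, 76708792 to 76726168), which encodes a chain of collagen VI, had 1.42 CPM in the mix, against 2.82, 2.51, 4.06 and 3.61 CPM in TGFβ then IFNγ, 5.06, 5.93, 5.42 and 4.06 CPM in medium then IFNγ and 11.6, 14.3, 16 and 18.6 CPM in medium then TGFβ. It was lowest in the mix among all 29 libraries. Its neighbour chain Col6a2 had 0.142 CPM in the mix and 0.325 CPM or more in every other library. Col3a1 stood at 80.4 CPM in the mix, below the 142 to 193 CPM of medium then IFNγ and the 112 to 136 CPM of TGFβ then IFNγ. The inhibitor of metalloproteinases Timp1 went the other way, with 454 CPM in the mix, above the 124 to 142 CPM of IFNγ alone and the 143 to 281 CPM of TGFβ alone. Col3a1, Col1a1 and Col1a2 also count among the markers of fibroblasts and endothelial cells. Of 12 such markers 7 were tested, and these summed to 147 CPM in the mix, 204 to 240 CPM in medium then IFNγ, 161 to 221 CPM in TGFβ then IFNγ and 589 to 1950 CPM in medium then medium. Col1a1, Acta2, Lum and Kdr reached at most 0.757, 0.346, 0.175 and 0.0488 CPM in any library, and the part of such cells in the collagen values was not tested.

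Further genes, chosen for a large gap of the mix below IFNγ alone, were by that choice lower than in every library of IFNγ alone. Tmem119, a membrane protein gene known from microglia and osteoblasts, had 0.283 CPM in the mix, against 1.91, 3.3, 1.52 and 2.5 CPM with IFNγ alone. The arrestin gene Arrb1 had 0.898 CPM in the mix, against 4.08, 4.03, 11.9 and 6.06 CPM with IFNγ alone (edgeR difference -3.05, SE 0.731, adjusted p = 0.0236). The water channel gene Aqp5 had 0.567 CPM in the mix and 2.45 to 2.71 CPM with IFNγ alone, and Dcdc2a 0.142 CPM in the mix and 1.02 to 1.72 CPM with IFNγ alone. Arrb1 in the mix also lay below all libraries of TGFβ alone (1.63 to 10.1 CPM).

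Compared with TGFβ alone, the genes lowest in the mix were Slc35f3, Cdh10, Col6a1, H19, S1pr3 and Cd33. The cadherin gene Cdh10 had 0.803 CPM in the mix, against 7.89, 8.38, 7.38 and 8.64 CPM in medium then TGFβ and 0.577, 0.728, 0.659 and 0.222 CPM in medium then IFNγ. The mix was just above the libraries of IFNγ alone and far below those of TGFβ alone. Cd33, a sialic acid binding receptor, had 2.74 CPM in the mix, against 16.6 to 24.7 CPM in TGFβ alone and 0.723 to 1.47 CPM in IFNγ alone, and the sphingosine phosphate receptor gene S1pr3 1.28 CPM in the mix, against 8.21 to 12.7 CPM and 1.06 to 2.69 CPM. For these 3 genes the mix lay nearer to IFNγ alone than to TGFβ alone. They were chosen for a large gap below TGFβ alone, so that distance follows from the choice.

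The sum of the single effects (IFNγ alone plus TGFβ alone minus medium, in log2 CPM) lay within 2-fold of the mix for most genes. At 24 h 1962 of 14935 genes (13.1%) differed from it at least 2-fold, and 821 (5.5%) were called, that is, also lay outside the 4 sums, 502 higher and 319 lower in the mix, and 93 (0.623%) lay at least 2-fold beyond the sums at all 4 durations. The edgeR interaction, fitted with duration as a block, called 349 genes (2.34%). For the interferon lists the departure depended on which libraries formed the sum. The median departure of the GTPases was 0.53, 0.63, 3.55 and 2.08 with the 2, 6, 12 and 24 h libraries, and that of the antiviral genes 0.4, 0.36, 3.2 and 1.77. At 24 h 14 of 18 GTPases and 25 of 32 antiviral genes were called higher than the sum, against 3.36% of all genes, and the stricter call held for 1 and 0 of them. The edgeR interaction called 0 of either list.

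Tnfrsf11b (chromosome 15, 54250619 to 54278484), which encodes osteoprotegerin, the decoy receptor of RANKL, lay at least 2-fold above the sums at all 4 durations. It had 16.5 CPM in the mix, against 2.22, 1.74, 0.76 and 1.06 CPM in medium then IFNγ, 2.23, 3.41, 0.512 and 1.41 CPM in medium then TGFβ and 1.33, 1.21, 0.296 and 1.22 CPM in medium then medium. The mix was above every one of these 12 libraries and 3.65 above the sum at 24 h (edgeR interaction 3.54, SE 0.673, adjusted p = 0.00941). TGFβ then IFNγ had 21, 22.9, 5.3 and 3.15 CPM, so its 2 and 6 h libraries were higher than the mix and its 12 and 24 h libraries lower. IFNγ then TGFβ, at 2.65, 6.29, 1.09 and 1.67 CPM, stayed below the mix.

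Ass1 (chromosome 2, 31470207 to 31520672), which makes the precursor of arginine, had 31.8 CPM in the mix, against 5.15, 6.27, 4.71 and 3.95 CPM with IFNγ alone, 22, 23.5, 15.4 and 13.6 CPM with TGFβ alone and 8.04 to 12.2 CPM in medium. The level in the mix was above all of these although IFNγ alone was below medium, and the edgeR interaction was 1.92 (SE 0.259, adjusted p = 0.000591). The glycine decarboxylase gene Gldc had 4.63 CPM in the mix, against 1.11 to 1.73 CPM with IFNγ alone, 1.74 to 2.2 CPM with TGFβ alone and 1.92 to 3.12 CPM in medium (edgeR interaction 1.95, SE 0.476, adjusted p = 0.0338). The feedback repressor Skil, at 225 CPM in the mix, was above the 147 to 169 CPM of IFNγ alone, the 187 to 210 CPM of TGFβ alone and the 180 to 209 CPM of medium (edgeR interaction 0.59, SE 0.102, adjusted p = 0.00566). Irs2, an adaptor of insulin signalling that was picked after its values were seen, had 79 CPM in the mix, above the 30.2 to 49.5 CPM of IFNγ alone, the 41.3 to 62.1 CPM of TGFβ alone and the 46.6 to 72 CPM of medium (edgeR interaction 1.47, SE 0.112, adjusted p = 5.56e-08).

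Below the sum, the potassium channel subunit gene Kcnf1 had 1.04 CPM in the mix, against 3.55, 3.25, 3.95 and 2.95 CPM with IFNγ alone, 3.7, 3.41, 8.09 and 6.85 CPM with TGFβ alone and 2.83, 2.14, 2.96 and 3.6 CPM in medium. It was lowest in the mix, although most libraries of either cytokine alone lay above the medium library of the same duration (edgeR interaction -2.93, SE 0.435, adjusted p = 0.00224). Ndp, which encodes the Wnt pathway ligand norrin, had 0.425 CPM in the mix, against 1.62 to 2.17 CPM with IFNγ alone, 2.29 to 3.33 CPM with TGFβ alone and 2.99 to 3.21 CPM in medium (edgeR interaction -2.08, SE 0.442, adjusted p = 0.016). The transcription factor gene Bnc1 had 0.52 CPM in the mix, against 0.896 to 3.04 CPM, 3.05 to 9.38 CPM and 1.21 to 2.71 CPM in the same groups (edgeR interaction -3.51, SE 0.754, adjusted p = 0.0173). The lower group held further 6720489N17Rik, Abcc10 and Selp, at 1.13, 0.898 and 1.46 CPM in the mix. For Aox3 and Prg4, named for high departures, the mix had 0.142 and 0.0945 CPM, and the sum lay under the level of a single count, so no size is given. Without the duration block, edgeR called 1 gene for this interaction.

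**Figure D5:**
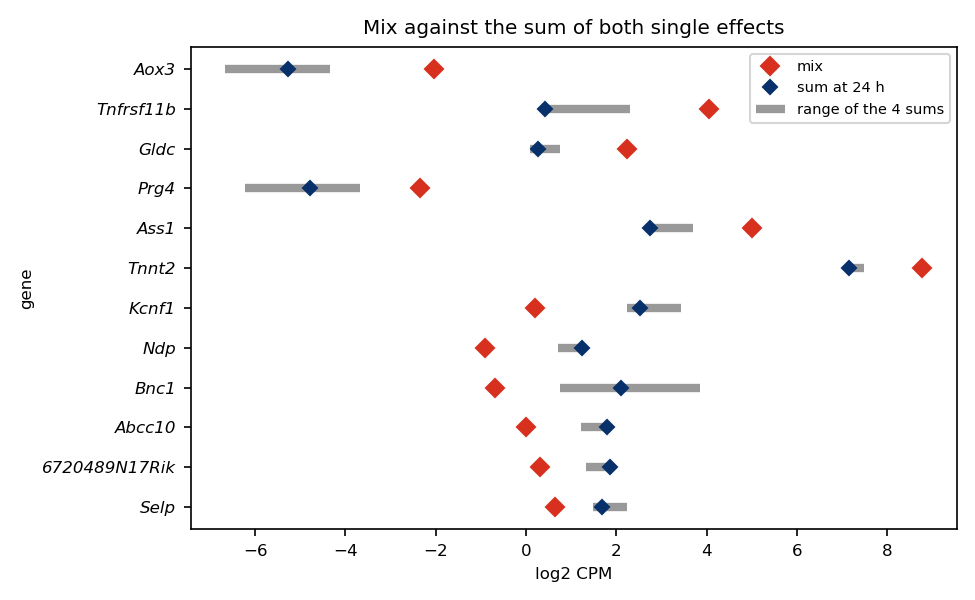
Log2 CPM of the mix (red), the sum of both single effects at 24 h (dark blue) and the range of the 4 sums over durations (grey) for the 12 genes with the largest gap above (first 6 from the top) or below the sums. The mix lies outside the grey bar for each gene by the rule that chose the genes, and the bars of Aox3 and Prg4 lie under the level of a single count.

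Antiviral and MHC class I genes differed less between the mix and the 2 and 6 h libraries of TGFβ then IFNγ than between the mix and its 24 h library. Of 32 antiviral genes, 23 were called higher in the mix than in the 24 h library of TGFβ then IFNγ (median 1.47), against 2.83% of all genes, but the median was 0.06 and 0.27 against the 2 and 6 h libraries, and 0 of them met the stricter call. Over all genes 0.415% met the stricter call in this comparison. MHC class I presentation gave 9 of 23 higher (median 0.83), with medians of 0.04 and 0.11 against 2 and 6 h. Cd274 stood at 311 CPM in the mix, against 307, 315, 184 and 123 CPM in TGFβ then IFNγ. H2-K1 stood at 1460 CPM in the mix, against 1390, 1330, 745 and 525 CPM. For both the mix stood near the 2 and 6 h libraries and above those of 12 and 24 h. Medium then TGFβ was split the same way, with a mean log2 level of the antiviral genes relative to medium of -0.39, -0.61, -2.91 and -1.75 at 2, 6, 12 and 24 h. The length of the TGFβ stimulation and other differences between these libraries cannot be told apart.

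For further genes the mix was likewise nearer to the 2 and 6 h libraries of TGFβ then IFNγ than to its 24 h library. Slfn4, of the interferon-inducible Schlafen family, had 27.8 CPM in the mix, against 19.2, 15.7, 1.58 and 0.516 CPM in TGFβ then IFNγ. Ccl7, a monocyte attractant, had 20.2 CPM in the mix, against 13.8, 13.9, 3.95 and 1.66 CPM. Trim30c had 44.3 CPM in the mix, against 39.7, 36.9, 2.99 and 1.15 CPM, and the galectin gene Lgals9 103 CPM in the mix, against 86.3, 73.7, 29.6 and 11.9 CPM. The mix lay above all 4 libraries for each of these genes, nearest to those of 2 and 6 h. Slfn4 and Ccl7 were chosen for a gap above all 4 libraries, so for them that position follows from the choice. The caspase gene Casp4, whose product senses bacterial lipopolysaccharide, had 22.9 CPM in the mix, against 20.5, 22.2, 11.1 and 7.1 CPM. The cyclin gene Ccne1 had 120 CPM in the mix, against 109, 94.4, 62.5 and 51.2 CPM in TGFβ then IFNγ and 72.8 to 90.2 CPM in medium then IFNγ.

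Some matrix and TGFβ target genes were called lower in the mix than in the 24 h library of TGFβ then IFNγ. Of 38 matrix genes 10 were called lower and 0 higher, against 2.36% lower over all genes, and of 22 TGFβ targets 5 lower (Thbs1, Fn1, Mmp9, Mmp12 and Ctla2a) and 1 higher (Cdkn1a). The median was -0.21 in each list, and 0 genes of either list met the stricter call or were called by edgeR. Over all genes 0.415% met the stricter call. Thbs1, a matrix protein that activates latent TGFβ, had 23.9 CPM in the mix, against 33.8, 24.8, 76.3 and 101 CPM in TGFβ then IFNγ. Fn1, which encodes fibronectin, had 5920 CPM in the mix, against 6340, 6800, 11900 and 12900 CPM, and the gelatinase gene Mmp9 0.236 CPM in the mix, against 0.379, 0.366, 1.01 and 1.49 CPM. The mix was below all 4 libraries in each case, least so below those of 2 and 6 h. Fbln2 in the mix (80.9 CPM) was likewise below the 88.7, 92.3, 165 and 207 CPM of TGFβ then IFNγ.

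The 3 genes called by edgeR against TGFβ then IFNγ were Adgrl3, Myo5b and Irs2, and without duration as a block edgeR called 0. The adhesion receptor gene Adgrl3 had 8.55 CPM in the mix, against 11.9, 13.7, 20.9 and 20.7 CPM (difference -1.29, SE 0.217, edgeR adjusted p = 0.0246). The motor protein gene Myo5b had 14.3 CPM in the mix, against 20.6, 23.6, 32.5 and 37.4 CPM (difference -1.2, SE 0.203, edgeR adjusted p = 0.0246). Irs2 had 79 CPM in the mix, against 73.8, 87.1, 59 and 50.7 CPM (difference 0.57, SE 0.095, edgeR adjusted p = 0.0246), so its groups overlapped. Among the genes with the largest gaps from all 4 libraries, the heat shock gene Hspa1b was higher, at 10.1 CPM in the mix and 2.75 to 5.85 CPM in TGFβ then IFNγ, as were Gm8337, Medag and the phosphatase gene Dusp2 at 5.86, 1.75 and 3.45 CPM in the mix. Cdh10, Bnc1, Ndp, Lamb3, the endothelin receptor gene Ednra and 6720489N17Rik were lower. Cdh10 had 0.803 CPM in the mix, against 2.17, 2.33, 3.89 and 7.22 CPM, and Ednra 0.756 CPM in the mix, against 1.57, 1.55, 2.37 and 2.41 CPM.

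IFNγ then TGFβ, the reverse order, had lower levels of interferon genes than the mix. All 18 tested GTPases were called higher in the mix (median 3.33), as were 18 of 23 MHC class I genes (median 1.81) and 26 of 32 antiviral genes (median 1.87), against 5.51% of all genes. Cd274 had 311 CPM in the mix, against 14.6, 17, 6.66 and 6.4 CPM in IFNγ then TGFβ, and Irf1 507 CPM in the mix, against 42.4, 41, 28.7 and 28.9 CPM. The cells of IFNγ then TGFβ had been free of added IFNγ for 24 h, as had those of IFNγ then medium, where Irf1 lay between 31.8 and 47.6 CPM. Serpina3f, a serine protease inhibitor, had 9.17 CPM in the mix and was at 0 in all 4 libraries of IFNγ then TGFβ.

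TGFβ targets were called in both directions against IFNγ then TGFβ. Of 22 TGFβ targets 4 were called higher and 5 lower in the mix than in IFNγ then TGFβ (median -0.34), against 5.51% higher and 5.97% lower over all genes. The higher ones included Jun, Il11 and the cell cycle inhibitor Cdkn1a, and the lower ones Thbs1, Mmp9, Id3, Mmp12 and Col1a1. Skil had 225 CPM in the mix, within the 187 to 231 CPM of IFNγ then TGFβ, and Tnnt2 437 CPM, within 380 to 530 CPM. Of 20 tested genes of the stress response and amino acid supply, 10 were called higher and 0 lower in the mix, against 5.51% higher over all genes. The median was 1, and 1 gene met the stricter call as higher, which 2.6% of all genes did. Against medium then IFNγ and TGFβ then IFNγ 0 of the 20 were called (medians 0.21 and 0.27), against 4.81% and 5.2% of all genes. The mean log2 level of this list relative to medium was 0.61 in the mix and -0.55 in the 24 h library of IFNγ then TGFβ. Atf3, a stress-induced transcription factor, had 72.5 CPM in the mix, against 13.2, 19.2, 7.18 and 7.39 CPM in IFNγ then TGFβ, and Chac1, which degrades glutathione, 24.3 CPM in the mix, against 14.9, 8.61, 17.1 and 3.79 CPM. Atf3 was also above the 30.6 to 43.7 CPM of medium then IFNγ and the 5.02 to 14.5 CPM of medium then TGFβ, while Chac1 exceeded them by little (at most 24.2 and 20.9 CPM).

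Of 40 tested cell cycle genes 2, Ccne1 and Ccne2, were called higher and 0 lower than in medium then medium (median 0.31), against 4.71% and 6.76% of all genes. Against medium then IFNγ 0 were called in either direction (median -0.05), against 2.16% higher and 2.66% lower over all genes. The mean log2 level of the cell cycle list relative to medium was 0.68 in the mix. It was 0.26, -0.73, 0.2 and 0.27 in the 2, 6, 12 and 24 h libraries of medium then medium and 0.52 to 0.72 in medium then IFNγ. Of 21 tested genes of cholesterol and fatty acid synthesis 6 (Lss, Idi1, Stard4 and Scd2 among them) were called lower and 0 higher than in medium then TGFβ (median -0.65), against 5.66% and 6.48% of all genes. Against medium then IFNγ 0 were called in either direction (median -0.31), against 2.16% higher and 2.66% lower over all genes. The mean log2 level of this list relative to medium was -0.35 in the mix, below the -0.2 to -0.0 of medium then IFNγ. Of 18 tested targets of MAPK signalling, the pathway downstream of NRAS, 5 (Phlda1, Spry2, Ier3, Egr1 and Dusp5) were called higher than in IFNγ then TGFβ and 1 (Spry1) lower, against 5.51% and 5.97% of all genes. Egr1, an immediate early transcription factor, had 358 CPM in the mix, against 69.6 to 116 CPM in that sequence. Against TGFβ then IFNγ 0 of the 18 MAPK targets were called (5.2% of all genes). Against medium then IFNγ 1 was called higher (2.16% of all genes). Of 12 tested genes in a list of T cell ligands 4 were called higher than in medium then medium, against 4.71% of all genes. They were Cd274, Cd80, H2-T23 and Ido1, the last encoding an enzyme rather than a ligand. Against medium then IFNγ 0 genes of this list were called in either direction, where 2.16% of all genes were higher and 2.66% lower. Of 13 tested genes of an undifferentiated melanoma state, Nt5e, which makes adenosine, was called higher than in medium then IFNγ, at 209 CPM in the mix and 54.1 to 87 CPM, and Ngfr, listed at 0 in the mix, lower. Over all genes 2.16% were higher and 2.66% lower in that comparison. Of 14 reference genes 0 were called against medium then IFNγ, medium then TGFβ or TGFβ then IFNγ. Over all genes 4.81%, 12.1% and 5.2% were called there. Against IFNγ then TGFβ and IFNγ then medium 0 were called as well (11.5% and 13.8% of all genes). Against medium then medium 1 was called higher (4.71% of all genes). Against TGFβ then medium 1 was called higher (6.99% of all genes), and it also met the stricter call, as did 3.64% of all genes.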

How the data were processed

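mRNA was measured in 29 libraries of NMM cells (stranded mRNA kit, NovaSeq sequencing, serum 10%, RNA integrity above 8, per the labels' protocols). The authors deposited raw counts per gene (28229 genes). HISAT and the build GRCm38 are named, per the submitters' processing notes. No source used here gives the counting tool, annotation or strand setting, so reads shared by near-identical or antisense genes cannot be assigned with certainty. The table holds no further columns of samples.

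From these counts, genes were kept with edgeR's filterByExpr (minimum count 10, by group), library sizes were scaled by TMM, and log2 CPM were computed with a prior count of 2 (R 4.3.3, edgeR 4.0.16, limma 3.58.1). Printed CPM carry no prior. The mitochondrial share was 0.596% to 1.31% of counts, lowest in the mix. The mix was compared with the 24 h library and the 4 libraries of each sequence, since the labels give no further replicates. The sum of single effects used, at each duration, IFNγ plus TGFβ minus medium. The pooled edgeR quasi-likelihood fit (18 residual degrees of freedom) and DESeq2 1.42.0, both with duration as the block, and the settings in the closing section were alternatives. The pairing by duration comes from the labels, which give the length of the first stimulation. Scripts were tested on simulated data.

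Named genes were the 6 with the largest gap beyond the 4 libraries in each direction of a comparison, with a mean of at least 2 CPM over all libraries, plus a panel of pathway genes and up to 4 members of a list with the largest difference. Other genes named (Irs2, Adgrl3 and Myo5b among them) were picked after their values were seen. Members, lists and comparisons were chosen with earlier results of these data known. Some genes are not reported here. Promoters were matched by symbol (2 of 2 genes). Python 3.11.15, pandas 2.3.3, numpy 2.4.6 and matplotlib 3.10.9 were used.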

Additional observations from a re-analysis of the deposited data

Results flagged for a closer look

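In 46 of 644 checks (92 named genes in each of 7 sequences), 1 of the 4 libraries of a sequence lay farther from the other 3 than Dixon's 95% critical value allows, which chance gives in about 1 in 20. Of these, 23 concerned the 6 h library of medium then medium. In it Cxcl10 had 37.1 CPM (155 to 198 CPM in the other 3), Irf1 20 (41.6 to 47.6), Irf8 13.4 (26.3 to 27.7), Tap1 90.5 (137 to 146), Gbp2 97.9 (212 to 233), Igtp 49.9 (67.2 to 70.8), Gm4841 1.91 (4.14 to 4.54), Slfn4 0.462 (5.76 to 8.86), Fbln2 18.7 (25.7 to 27) and Itga2 4.97 (26.1 to 33.4). Higher there were Mmp12 at 4.8 CPM (1.27 to 1.51), Prg4 51 (1.58 to 2.21), Sod3 51.8 (4.14 to 6.12), Col3a1 1460 (481 to 544), Dcn 461 (81.1 to 104), Igfbp5 4060 (428 to 568), Cpm 185 (33.2 to 40.3), Col6a1 36.2 (14.4 to 14.9), Col6a2 7.63 (2.1 to 2.47), Medag 16.1 (6.56 to 7.59), Thbs1 88 (26.5 to 28.7), Fn1 10300 (5900 to 6270) and Pmepa1 173 (104 to 113). The differences of the mix from medium use the 24 h library, but list levels relative to medium and the edgeR values rest on all 4 medium libraries, this one included. The mean log2 level of the matrix list, for example, was -0.18, 0.6, -0.21 and -0.21 in the 2, 6, 12 and 24 h libraries of medium then medium.

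Elsewhere in medium then medium, Gbp4 had 4.69 CPM at 12 h (3.38 to 3.54 in the other 3), Tnfrsf11b 0.296 at 12 h (1.21 to 1.33), Lamb3 0.229 at 2 h (0.0493 to 0.0578), Gm8337 2.51 at 2 h (3.01 to 3.12) and Ndp 2.99 at 24 h (3.18 to 3.21). In medium then IFNγ, Tap1 had 343 CPM at 2 h (338 to 339), Igtp 588 at 2 h (568 to 571), Smad7 42.9 at 2 h (37.3 to 38.1), Hmgcll1 0.0556 at 24 h (0.152 to 0.178), Lamb3 0.0444 at 2 h (0 in the others) and Aqp5 2.45 at 24 h (2.69 to 2.71). In TGFβ then IFNγ, Gbp2 had 1830 CPM at 24 h (2330 to 2450) and Gbp4 183 at 6 h (219 to 228). At 6 h Batf2 had 0.112 CPM in medium then TGFβ (0 in the others) and 1.27 in IFNγ then TGFβ (0.135 to 0.208), where Gm4841 had 6.55 (2.61 to 3.02). In IFNγ then medium, Igfbp5 had 556 CPM at 2 h (375 to 401), Dcdc2a 2.5 at 6 h (5.51 to 6.19), Ass1 6.45 at 2 h (8.33 to 8.76) and Abcc10 4.63 at 12 h (2.89 to 3.11). In TGFβ then medium, Socs1 had 5.17 CPM at 2 h (3.55 to 3.67), Selp 4.19 at 24 h (5.62 to 5.9) and Ido1 0.0502 at 2 h (0 in the others).

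The edgeR interaction with Benjamini-Hochberg adjustment, which assumes that the lone mix library varies like the others, called the effect of TGFβ different with and without IFNγ for 15 named genes. Over all genes it called 349 with duration as a block and 1 without the block. Higher in the mix than the sum, on the log2 scale, were Tnfrsf11b by 3.54 (adjusted p = 0.00941), Casp4 by 2.17 (adjusted p = 0.0288), Gldc by 1.95 (adjusted p = 0.0338), Ass1 by 1.92 (adjusted p = 0.000591), Tnnt2 by 1.64 (adjusted p = 1.58e-05), Irs2 by 1.47 (adjusted p = 5.56e-08) and Skil by 0.59 (adjusted p = 0.00566). Lower were Bnc1 at -3.51 (adjusted p = 0.0173), Kcnf1 at -2.93 (adjusted p = 0.00224), Ccn2 at -2.6 (adjusted p = 0.0121), Ndp at -2.08 (adjusted p = 0.016), 6720489N17Rik at -1.41 (adjusted p = 0.0498), Myo5b at -1.41 (adjusted p = 0.00428), Adgrl3 at -1.24 (adjusted p = 0.0127) and Irf8 at -0.93 (adjusted p = 0.0288).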

How the results depend on the processing

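Counts of called genes depended on the rule. Against TGFβ then IFNγ, 776 genes became 1207 with no filter on low counts, 410 against the mean of the 4 libraries, 1296 with the 24 h library alone, 62 where the mix had to lie 2-fold beyond all 4 (chosen after seeing the data, as below), 3 by edgeR with the replicate block (duration), 0 without the block and 119 by DESeq2. Against medium then IFNγ, 719 became 1184 with no filter, 221 beyond all 4, 335 by edgeR with the block and 124 without. For the sum, 821 became 1313 with no filter, 1962 with the 24 h sum alone, 93 beyond all 4, 349 by edgeR with the block and 1 without. Against medium then medium, 1713 became 1087 beyond all 4, 4587 by edgeR with the block, 3755 without and 4621 by DESeq2. Against medium then TGFβ, 1814 became 905, 4231 by edgeR with the block and 4234 by DESeq2; against IFNγ then TGFβ, 1715 became 767, 3537 and 3602. Against IFNγ then medium, 2055 became 1093 beyond all 4, 4490 by edgeR with the block, 3343 without and 4481 by DESeq2, and against TGFβ then medium 1969 became 931, 4376, 2986 and 4435. Leaving out 1 library of a sequence gave 668 to 927 against TGFβ then IFNγ, 758 to 804 against medium then IFNγ, 942 to 1178 for the sum, 1738 to 1838 against medium, 1843 to 2056 against TGFβ, 1757 to 1880 against IFNγ then TGFβ, 2078 to 2163 against IFNγ then medium and 2005 to 2060 against TGFβ then medium. Of 2944 differences of named genes and 768 list medians under alternatives, 0 reversed and 310 and 79 moved, of which 67 and 4 moved under a setting other than the mean of the 4 libraries. With 1 mix library, no spread of the mix itself could be measured, and genes under about 3 counts carry no fold.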
